A study of Arabidopsis thaliana with 12 samples.

Results

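SWEET11 (AT3G48740) is a sucrose transporter gene of Arabidopsis thaliana, and its transcript was followed in the roots of 4 genotypes on ATH1 GeneChips, on which a probe set of several short oligonucleotides reports on each gene. It is 1 gene of 22746 probe sets that are not array controls, and its probe set is paired with this gene alone in the platform annotation. The gene was chosen by its measured values, namely its low signal in roots of the salt-hypersensitive mutant sahy1 and its difference between the wild types. Those differences are therefore given as a description with no test, and tests are given only for the overexpression line against its own wild type and for other genes. The test of the overexpression line uses wild-type arrays that also entered the choice, so it is not fully apart from that choice.

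The 12 root samples fell into 4 groups of 3. The first group was sahy1, which carries a T-DNA insertion in SAHY1 (AT2G01640), placed by the study in the third exon, with no transcript detected by RT-PCR. The second was SAHY1OE, the SAHY1 overexpression line 4-1, and its labels name no promoter. The only overexpression construct in the study's methods places a Myc-tagged SAHY1 under the constitutive 35S promoter, and whether line 4-1 carries it is not said. The others were the wild types, Col-7 for SAHY1OE and Col-0 for sahy1. No other allele or agent was named for any group. The mutant stands for 1 insertion allele and the overexpression for 1 line, so an effect of the gene and an effect of the line cannot be told apart. Seedlings spent 5 d on basal medium, which contains sucrose, and 7 d more after transfer to fresh medium, so the roots came from plants 12 d old, in biological triplicate. The labels give no batch or scan date.

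SWEET proteins are membrane carriers that let sugars move down their gradient, in contrast to the proton-coupled SUC and STP carriers, which take up sucrose and hexoses against it. SWEET11 belongs to the branch of the family that moves mainly sucrose. In Arabidopsis leaves, SWEET11 and its close relative SWEET12 lie in the plasma membrane of phloem parenchyma cells and release sucrose to the cell wall space, from which it is loaded into the phloem. Other members, such as SWEET2, SWEET16 and SWEET17, lie in the vacuolar membrane and are known from roots.

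SWEET11 was low in sahy1 roots, intermediate in SAHY1OE and Col-7 roots, and high in Col-0 roots. Its signal, in MAS5 units that are scaled to the same trimmed mean on each array, was 77.0, 96.1 and 101 on the sahy1 arrays. On the SAHY1OE arrays it was 274, 364 and 607, and on the Col-7 arrays 466, 438 and 568. On the Col-0 arrays it was 1526, 1068 and 1284. Every sahy1 array lay below every array of the other groups, and every Col-0 array lay above every other array, whereas the SAHY1OE and Col-7 arrays overlapped. The group means were 91.5 ± 12.8 in sahy1, 415 ± 172 in SAHY1OE, 490 ± 68.4 in Col-7 and 1292 ± 229 in Col-0 roots (SD, n = 3 each). The order of the levels was thus sahy1, then SAHY1OE and Col-7 together, then Col-0.

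**Figure D1:**
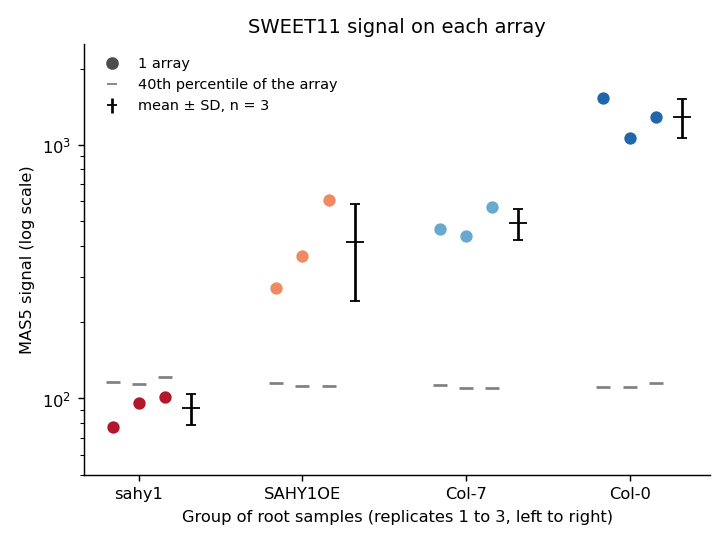
SWEET11 MAS5 signal (log axis) on each of the 12 arrays by group; each point is 1 array, the black bars are the mean ± SD of 3 arrays, and the grey dashes are the 40th percentile of each array. The sahy1 points, at 77.0 to 101, lie under the dashes, the SAHY1OE and Col-7 points overlap, and the Col-0 points, at 1068 to 1526, lie above all others.

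The place of SWEET11 among all probe sets of an array moved with the group. It stood between percentiles 33.9 and 37.4 of the signals on the sahy1 arrays, below the 40th percentile, which served as the limit for low signals. It stood between percentiles 57.5 and 75.7 on the SAHY1OE arrays, between 68.7 and 74.1 on the Col-7 arrays and between 85.5 and 90.0 on the Col-0 arrays. The probe set passed that filter through the SAHY1OE, Col-7 and Col-0 arrays. Because no detection calls were used, how much of the sahy1 signal is background is unknown, and so is the exact fold against it. In whole roots, fewer cells of a type and less RNA per cell cannot be told apart.

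The difference of SWEET11 between sahy1 and Col-0 roots was -3.82 on the log2 scale (standard error 0.24, 95% interval -4.33 to -3.30), 14.1-fold lower in sahy1. The lowest Col-0 array was 10.5 times the highest sahy1 array. Of 13834 probe sets that passed the filter on low signals, 4.13% were called in this comparison, 1.76% as lower in sahy1, a call being an adjusted p under 0.05 in limma with more than 2-fold between the group means. By size of the fall, SWEET11 stood 3rd among the 13834. The probe sets ahead of it were AT3G28310 at -4.50, with mean signals of 7.80 in sahy1 and 162 in Col-0, and AT4G09110 at -4.09, with 17.6 in sahy1 and 150 in Col-0, and the next was AT3G28320 at -3.63. The sahy1 signals of these genes and of SWEET11 lie under the limit for low signals, so their exact order is uncertain. Among the 3533 probe sets with a mean Col-0 signal of at least 1000, SWEET11 had the most negative difference, followed by AT3G29410 at -3.09. That limit uses the Col-0 level, which is part of the difference that chose the gene. It leaves out AT3G28310 and AT4G09110, so this place is a description only.

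Against Col-7, the other wild type, SWEET11 was 5.36-fold lower in sahy1 roots (log2 difference -2.42, standard error 0.24, 95% interval -2.94 to -1.91). It stood 10th from the most negative in this comparison, in which 2.36% of the probe sets were called, 1.02% as lower in sahy1. The lowest Col-7 array was 4.32 times the highest sahy1 array. SWEET11 was also 4.32-fold lower in sahy1 than in SAHY1OE roots (log2 difference -2.11, standard error 0.24), a comparison added after the data were seen. The 3 comparisons of sahy1 share its arrays and are not independent of each other.

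The wild types differed as well. SWEET11 in Col-7 roots was 2.62-fold below its Col-0 level (log2 difference -1.39, standard error 0.24, 95% interval -1.91 to -0.88), and the lowest Col-0 array was 1.88 times the highest Col-7 array. It stood 29th from the most negative of 13834, in a comparison in which 1.81% of the probe sets were called and 0.535% were lower in Col-7. The size of the sahy1 difference therefore depended on the wild type it was set against, 5.36-fold with Col-7 and 14.1-fold with Col-0.

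**Figure D2:**
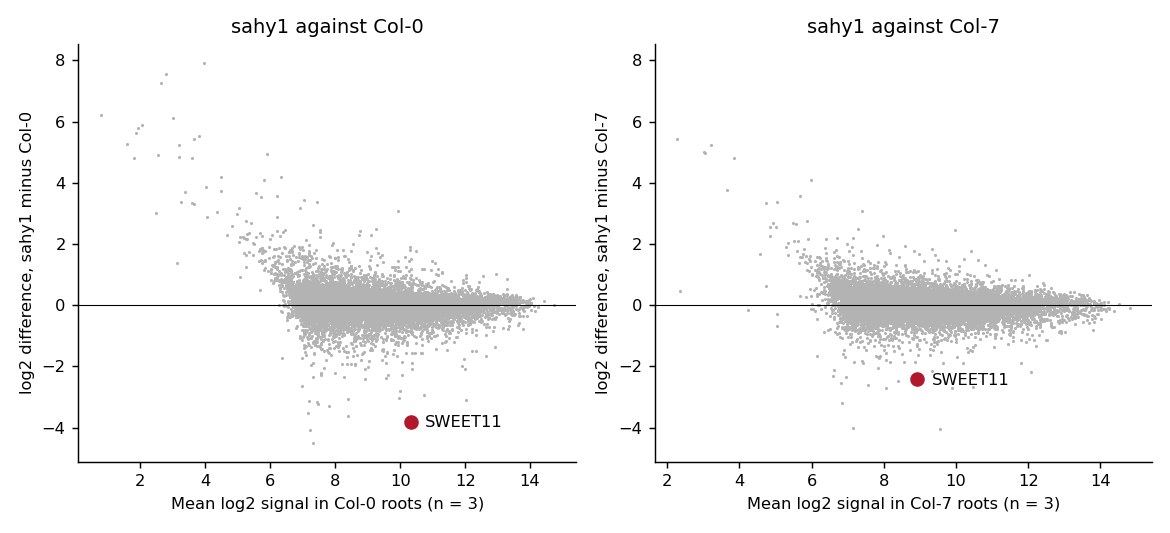
Log2 difference of each of 13834 probe sets (vertical axis) against its mean log2 signal in the wild type (horizontal axis, n = 3), for sahy1 against Col-7 and against Col-0 in a panel each. SWEET11, the red point, lies at -2.42 against Col-7 and at -3.82 against Col-0, among the most negative values in both.

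Overexpression of SAHY1 was not followed by a detectable change of SWEET11. Its log2 difference between SAHY1OE and Col-7 roots was -0.31 (standard error 0.24, 95% interval -0.83 to 0.20, limma adjusted p = 0.9999), 1.24-fold lower, and 1 of 3 SAHY1OE arrays lay above all 3 Col-7 arrays. The interval leaves room for a level between 1.77-fold lower and slightly higher. It rests on a spread shared by the 4 groups, which gives every SWEET11 difference the same standard error of 0.24. Because SAHY1OE spread more than the other groups, the interval may be too narrow for this comparison. In this comparison 3 probe sets (0.0217%) were called, SAHY1 among them. The SAHY1OE arrays spread widely for this gene, with a log2 SD of 0.58, larger than that of 98.4% of the probe sets in this group, where the median SD was 0.17. In the other groups the SD of SWEET11 was 0.21 in sahy1, 0.20 in Col-7 and 0.26 in Col-0. Without SAHY1OE replicate 3 the difference was -0.63, and without SAHY1OE replicate 1 it was -0.05. Against Col-0, SWEET11 was 3.26-fold lower in SAHY1OE (log2 difference -1.70, standard error 0.24, a comparison added after the data were seen and chosen with these levels known), with no overlap between the arrays.

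The labels were checked on SAHY1, whose signal was 65.5, 7.01 and 143 in sahy1 against 451, 258 and 336 in Col-0 roots (log2 difference -3.07, limma adjusted p = 0.0103). In SAHY1OE it was 20572, 20069 and 20789, against 284, 259 and 252 in Col-7 (log2 difference 6.27, limma adjusted p = 0.00418). The size of the difference between sahy1 and Col-0 rests on sahy1 replicate 2 and was -1.81 without it, and with no filter neither call was made (limma adjusted p = 0.0788 for sahy1 against Col-0 and 0.187 for SAHY1OE against Col-7). With the methods' unpaired test the sahy1 call was lost as well (adjusted p = 0.261). The position of the probes relative to the insertion was not examined.

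The stepped order of SWEET11, with every sahy1 array below every SAHY1OE and Col-7 array and these below every Col-0 array, was found for 86 of the 13834 probe sets (0.622%). The reverse order was found for 59 probe sets. Steps of more than 2-fold between sahy1 and Col-7 and again between Col-7 and Col-0 were found for 3, SWEET11, AT4G24350 and AT3G29410. AT4G24350 was at 31 ± 24 in sahy1, 116 ± 36.2 in SAHY1OE, 102 ± 29.5 in Col-7 and 227 ± 43.9 in Col-0 roots (SD, n = 3 each), and AT3G29410 was also the gene most like SWEET11 over the 12 arrays.

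Of the 17 SWEET genes listed, SWEET11 and 15 others have a probe set paired with that gene alone, and SWEET12 is not named by the platform annotation. Whether the probes of SWEET11 also bind SWEET12 transcript was not tested. Of the 15 others, 4 passed the filter and were tested, SWEET2, SWEET3, SWEET16 and SWEET17. In sahy1 against Col-0, 2 of the 4 were called lower, SWEET3 and SWEET16, beside 1.76% of all probe sets. Their median log2 difference was -0.98, beside 0.00 over all probe sets tested. Against Col-7, 1 of the 4, SWEET3, was called lower, beside 1.02% of all probe sets, and the median was -0.84, beside 0.01 over all. At an adjusted p under 0.05 without regard to fold, 3 of the 4 were lower in sahy1 than in Col-0 (7.32% of all probe sets were) and 3 lower than in Col-7 (6.69% of all), the exception being SWEET17. For the same 3, every sahy1 array lay below every Col-0 array, as for 16.5% of all probe sets, and below every Col-7 array, as for 15.0%. SWEET3 passed the filter through the Col-0 arrays alone, where it is high, so its difference from Col-0 is partly set by the filter, and these counts are a description and not evidence about the family. Of the 4 tested, 0 were called in SAHY1OE against Col-7 (0.0217% of all probe sets were) or in Col-7 against Col-0 (1.81% of all). The differences of sahy1 and of SAHY1OE, each from its own wild type, were unequal for these 3 by the interaction in limma, which 6.33% of all probe sets passed at an adjusted p under 0.05 (adjusted p = 0.0203 for SWEET2, 0.0190 for SWEET3 and 0.0350 for SWEET16). With no filter none of the 3 passed (limma adjusted p = 0.0997, 0.128 and 0.157), and with an array left out the result was lost in 3 of 12 fits for SWEET2, 1 of 12 for SWEET3 and 8 of 12 for SWEET16.

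SWEET3, a less studied member of the family, had the largest differences of the 4. Its signal was 34, 49 and 36 in sahy1, 125, 54.4 and 153 in SAHY1OE, 140, 124 and 94.7 in Col-7, and 263, 196 and 132 in Col-0 roots. The sahy1 arrays lay below all others, and the wild types overlapped. SWEET3 was lower in sahy1 than in Col-7 (log2 difference -1.58, standard error 0.33, limma adjusted p = 0.00794) and than in Col-0 (-2.27, standard error 0.33, limma adjusted p = 0.000406). These are low signals, and the probe set passed the filter through the Col-0 arrays alone. With no filter the difference from Col-0 kept its call (limma adjusted p = 0.0107), and the difference from Col-7 lost it (limma adjusted p = 0.0629). With the methods' unpaired test neither was called (adjusted p = 0.0501 against Col-0 and 0.0839 against Col-7), and after adding 32 before log2 the difference from Col-0 was 3.11-fold instead of 4.82-fold.

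SWEET16, a carrier of the vacuolar membrane that moves glucose, fructose and sucrose, was at 371, 545 and 489 in sahy1, at 911, 962 and 761 in SAHY1OE, at 1020, 815 and 714 in Col-7 and at 1153, 1134 and 707 in Col-0 roots. Every sahy1 array lay below every array of the other groups, which overlapped each other. The log2 difference was -1.08 from Col-0 (standard error 0.21, limma adjusted p = 0.00286), which was called, and -0.86 from Col-7 (limma adjusted p = 0.0158), which was under 2-fold. The call against Col-0 lay close to the 2-fold limit and was lost without Col-0 replicate 1 (-0.95), without Col-0 replicate 2 (-0.97) and without sahy1 replicate 1 (-0.92). With the methods' unpaired test it was lost as well (adjusted p = 0.127).

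SWEET2, a glucose carrier of the vacuolar membrane that limits the loss of sugar from Arabidopsis roots, was at 734, 642 and 746 in sahy1, at 1660, 1433 and 1091 in SAHY1OE, at 1118, 1524 and 1143 in Col-7 and at 1184, 1445 and 1296 in Col-0 roots. The sahy1 arrays lay below all others here too. The log2 difference was -0.82 from Col-7 (limma adjusted p = 0.00695) and -0.89 from Col-0 (limma adjusted p = 0.00264), both under 2-fold and so not called. Between the wild types SWEET2 differed by -0.06 on the log2 scale (Col-7 minus Col-0), where SWEET11 differed by -1.39.

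SWEET17, a fructose carrier of the same membrane, was at 1108, 1653 and 1330 in sahy1, at 1583, 1564 and 1514 in SAHY1OE, at 1567, 1521 and 1429 in Col-7 and at 1499, 1498 and 1399 in Col-0 roots. The sahy1 arrays spanned the range of the wild types. Its log2 difference from Col-0 was -0.12 (95% interval -0.42 to 0.17, limma adjusted p = 0.615), and that from Col-7 was -0.16 (limma adjusted p = 0.478).

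The other 11 SWEET genes with a probe set of their own, SWEET1, SWEET4 to SWEET10 and SWEET13 to SWEET15, did not pass the filter, with signals of 0.930 to 147 over the 12 arrays, and 0 of them were called in sahy1 against Col-0 when no filter was used. SWEET15, known from senescing leaves and seeds, was at 107, 84.3 and 112 in sahy1 and at 53.7 or less on every other array, with no overlap, but at or under the limit for low signals (log2 difference 2.09 from Col-7, adjusted p = 0.0816, from limma with no filter, and adjusted p = 0.296 against Col-0). SWEET13, which like SWEET11 moves sucrose, was at 147, 75.9 and 94.3 in sahy1 and between 19.6 and 83.7 elsewhere (log2 difference 0.75 from Col-0, adjusted p = 0.463 from limma with no filter). Neither difference passed the test.

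Among the other sugar carriers, 2 were tested, TMT1 and TMT2 of the vacuolar membrane. The list for that membrane holds 6 genes, of which 3 are named. No SUC gene, the sucrose uptake carriers, has a probe set named for it alone. Of the STP genes, 4 loci have one (AT5G61520, AT1G34580, AT5G26250 and AT3G19940), all with signals too low to be tested. TMT1, which loads sugars into the vacuole, was at 2283, 2417 and 2224 in sahy1, at 2872, 2775 and 2655 in SAHY1OE, at 3123, 2939 and 2343 in Col-7 and at 3643, 3693 and 3461 in Col-0 roots. All 3 sahy1 arrays lay below all 3 Col-0 arrays (log2 difference -0.64, limma adjusted p = 0.00292), by less than 2-fold and so not called, and its difference from Col-7 was -0.27 (limma adjusted p = 0.172). TMT2, its close relative, was at 545 ± 86.3 in sahy1, 399 ± 10.8 in SAHY1OE, 517 ± 31.7 in Col-7 and 459 ± 37.3 in Col-0 roots (SD, n = 3 each), with a log2 difference of 0.24 from Col-0 (limma adjusted p = 0.269). TMT3 had signals of 2.91 to 87.3 and was not tested.

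Over all 45 sugar transporter genes listed besides SWEET11, 22 were named and 6 were tested. Of these 6, 2 were called lower in sahy1 than in Col-0, the SWEET3 and SWEET16 already given, beside 1.76% of all probe sets. SWEET3 passed the filter through the Col-0 arrays alone, so this count too is a description. Of 44 genes of sugar metabolism and sugar response listed, 6 were named, 3 were tested and 0 were called, beside 4.13% of all probe sets, so that a count of 0 of 3 says little. CWINV6, a cell wall enzyme of the invertase family, was at 365 ± 12.9 in sahy1 and 519 ± 51.7 in Col-0 roots (SD, n = 3 each; log2 difference -0.50, limma adjusted p = 0.0262), under 2-fold. AT1G62660 was at 5226 ± 345 and 6446 ± 342 (SD, n = 3 each; -0.30, limma adjusted p = 0.0894) in sahy1 and Col-0 roots. BZIP53, a transcription factor of amino acid and sugar starvation responses, was at 2604 ± 303 in sahy1 and 3023 ± 177 in Col-0 roots (SD, n = 3 each; -0.22, limma adjusted p = 0.287). None of the 3 differed from Col-7 at an adjusted p under 0.05 (0.317, 0.146 and 0.308 in limma). Sucrose synthase and trehalose genes have no probe set named for them alone and were not analysed here.

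**Figure D3:**
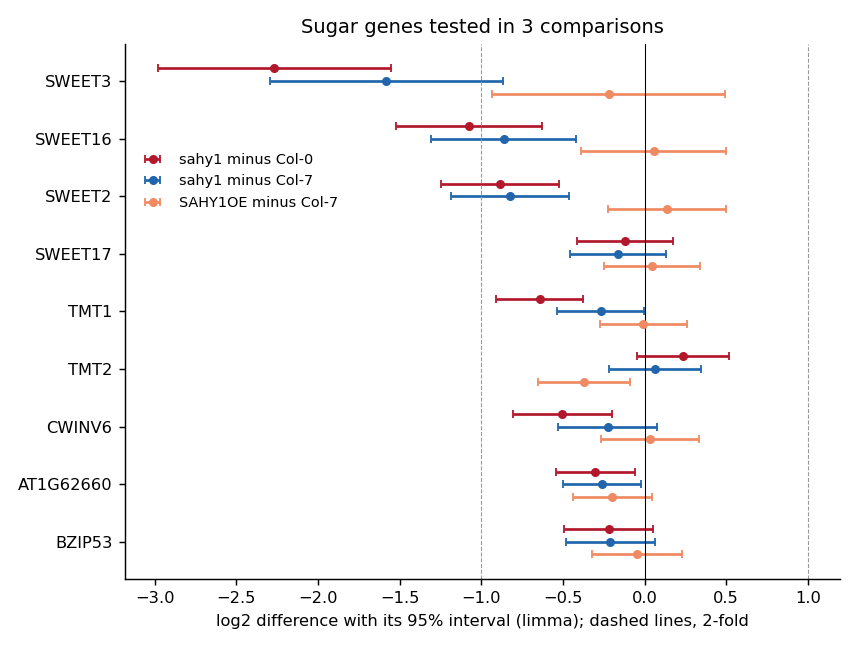
Log2 differences (horizontal axis) of the 9 other sugar genes tested, with the 95% interval from limma, in sahy1 against Col-0, sahy1 against Col-7 and SAHY1OE against Col-7; dashed lines mark 2-fold. SWEET3 at -2.27 and SWEET16 at -1.08 lie past the 2-fold line against Col-0, and all SAHY1OE values lie between -0.37 and 0.14.

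Markers of cell types bear on these values in part, because the platform annotation pairs few of them with a probe set of their own. It pairs 8730 probe sets with no gene, and whether these measure the other markers was not examined. Of 13 phloem markers only OPS, a gene of early phloem cells, is named, with signals of 102 to 119 in sahy1, 73.9 to 119 in SAHY1OE, 78.1 to 110 in Col-7 and 78.3 to 120 in Col-0 roots, which overlap and did not pass the filter. The xylem and stele, endodermis, and root cap and meristem lists hold no named probe set. Of 5 root hair markers 2 are named, the expansin genes EXPA7 and EXPA18. Their summed signal was 581 to 746 in sahy1, 1283 to 1527 in SAHY1OE, 1311 to 1525 in Col-7 and 1304 to 1500 in Col-0 roots. Both were called lower in sahy1 than in Col-0 (log2 difference -1.05 for EXPA7, limma adjusted p = 0.000593, and -1.19 for EXPA18, limma adjusted p = 0.000102) and than in Col-7 (-1.16 and -1.11), beside 1.76% and 1.02% of all probe sets called lower in these comparisons. With the methods' unpaired test only the EXPA18 difference from Col-0 kept its call. The EXPA7 call against Col-0 was lost without sahy1 replicate 1 (-0.97), without sahy1 replicate 3 (-0.96) and without Col-0 replicate 3 (-0.98). Their part in the SWEET values was not tested.

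Of 20 markers of green tissue, which would mark shoot RNA in a root sample, 2 are named, LHCB4.1 and RCA, and neither was at 0 in any group. Their summed signal was 2391 to 2835 in sahy1, 2343 to 2570 in SAHY1OE, 2562 to 2887 in Col-7 and 1833 to 2090 in Col-0 roots. LHCB4.1 was higher in sahy1 than in Col-0 (log2 difference 0.59, limma adjusted p = 0.00942; 7.7% of all probe sets were higher at an adjusted p under 0.05), under 2-fold, and was 0.10 from Col-7. RCA in sahy1 differed by 0.11 from Col-0 (limma adjusted p = 0.634) and by -0.29 from Col-7 (limma adjusted p = 0.146). The Col-0 roots, with the highest SWEET11 signal, had the lowest summed signal of these 2 genes. Its part in the SWEET11 difference was not tested.

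The genes whose signal ran most like that of SWEET11 were sought by the Pearson correlation of log2 signals over the 12 arrays, among 455 named genes whose group means spanned more than 2-fold. These correlations are a description, because the 12 points share 4 group means and SWEET11 was chosen for its group means. The median r of the candidates was -0.41, with 22 above 0.9 and 12 below -0.9. The highest were AT3G29410 (r = 0.98), AT5G15180 (0.97), AT2G43590 (0.96), AT1G35330 (0.95), AT3G47040, AT2G41970, AT4G40070, AT1G23850, AT1G70880 and AT5G04960 (each 0.94). All 10 were more than 2-fold lower in sahy1 than in Col-0, and 3 were more than 2-fold lower than in Col-7. Of all probe sets, 1.76% and 1.02% were called lower in these comparisons, which also needs an adjusted p under 0.05. The stepped order of SWEET11 with no overlap was found for 9 of the 10, beside 0.622% of all probe sets. The 10 were picked for running like SWEET11, so these counts are a description as well. By rank correlation, 4 of the 10 were again among the highest 10. After removal of the group means, r with SWEET11 lay between -0.13 and 0.84 for these genes.

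AT3G29410 was at 444, 567 and 478 in sahy1, at 1096, 1085 and 1878 in SAHY1OE, at 1278, 1233 and 1729 in Col-7 and at 4156, 3954 and 4490 in Col-0 roots. Like SWEET11, it was highest on replicate 3 among the SAHY1OE arrays and among the Col-7 arrays, and its r within groups was 0.84. In the other groups the highest replicates were not the same. AT3G29410 was highest on sahy1 replicate 2 and Col-0 replicate 3, and SWEET11 on sahy1 replicate 3 and Col-0 replicate 1. The log2 differences of AT3G29410 were -3.09 for sahy1 against Col-0, -1.50 for sahy1 against Col-7 and -1.59 for Col-7 against Col-0. The other 9 had smaller differences from Col-0 in sahy1, from -1.08 for AT1G35330 to -1.80 for AT5G04960.

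**Figure D4:**
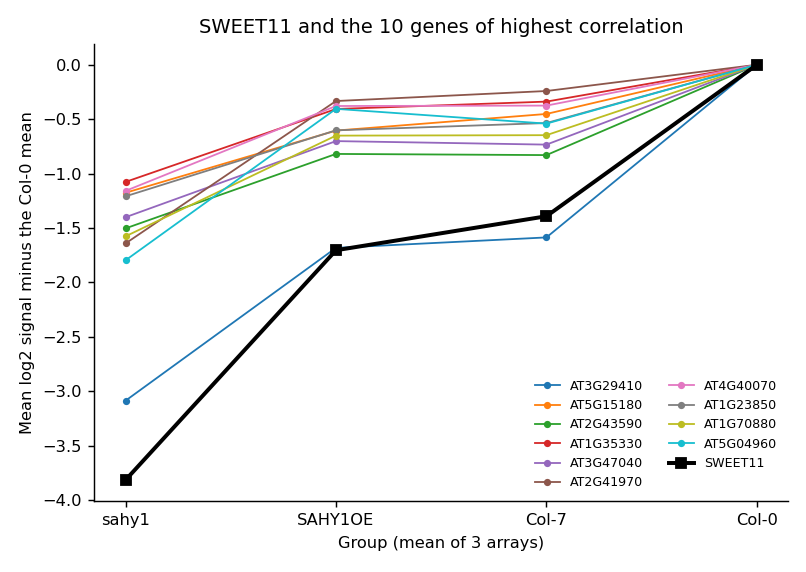
Mean log2 signal of each group (3 arrays) minus the Col-0 mean, for SWEET11 (black squares) and the 10 genes of highest correlation with it. All lines are lowest in sahy1, SWEET11 at -3.82 and AT3G29410 at -3.09, and only these 2 lie below -1 in Col-7.

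The genes that ran most opposite to SWEET11 were AT5G44400 (r = -0.98), AT4G12490 (-0.95), AT2G19970 (-0.95), TBL36 (-0.94) and AT1G05710 (-0.94). AT5G44400 was at 2880, 2598 and 2596 in sahy1, at 1830, 1373 and 1280 in SAHY1OE, at 1401, 1567 and 1123 in Col-7 and at 1027, 1026 and 914 in Col-0 roots, with sahy1 above and Col-0 below all other arrays. AT4G12490 had the widest span of the 5, with 951 ± 451 in sahy1, 168 ± 27.6 in SAHY1OE, 225 ± 11 in Col-7 and 75.2 ± 11.8 in Col-0 roots (SD, n = 3 each). TBL36, a member of a family of cell wall acetyltransferases, was at 5305 ± 433 in sahy1 and 2310 ± 71.4 in Col-0 roots (SD, n = 3 each).

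The neighbours of SWEET11 on its chromosome could be followed in part. Of the 10 annotated genes on each side, 20 in all, 6 are paired with a probe set of their own in the platform annotation. Of these 6, 2 were tested, AT3G48710 and AT3G48760. AT3G48640, AT3G48770, AT3G48810 and AT3G48830 had signals of 1.94 to 92.9 and did not pass the filter. AT3G48710 was at 165 ± 21.2 in sahy1 and 135 ± 57.5 in Col-0 roots (SD, n = 3 each; log2 difference 0.39, limma adjusted p = 0.376). AT3G48760 was at 807 ± 119 in sahy1 and 895 ± 110 in Col-0 roots (SD, n = 3 each; log2 difference -0.15, limma adjusted p = 0.564). Neither was called in any of the 4 comparisons, in which 4.13%, 2.36%, 1.81% and 0.0217% of all probe sets were called, so that a count of 0 of 2 says little about the neighbourhood.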

How the data were processed

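The authors deposited linear MAS5 intensities, scaled to a trimmed mean of 500 per array (2% left out at each end). GeneSpring GX 10.0.1 is named by the study; a MAS5 version is not given. Array medians lay between 192 and 204. Signals under 1 (46 to 334 per array) were set to 1 before log2. After removal of 64 control probe sets, 13834 of 22746 were kept, namely those at or above the array's 40th percentile (110 to 122) on all 3 arrays of some group. Group means over all 12 arrays were estimated in R 4.3.3 by limma 3.58.1, with Benjamini-Hochberg adjustment over the kept probe sets, after a test on simulated data. With 3 arrays a group, the number of arrays limits the precision.

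The gene, the lists and the tests were chosen with earlier results of these data known. Named were SWEET11, SAHY1, all sugar carriers with a probe set of their own, other list genes called, the 10 highest and 5 lowest correlations, and measured chromosome neighbours; LHCB4.1, RCA, OPS, CWINV6, AT1G62660, BZIP53 and the rank neighbours were named after their values were seen. In the platform annotation, probe sets are paired with 1 gene in 59.4% of cases, with several in 503 and with none in 8730. A gene with no named probe set may be measured by one of the others, which was not examined. Gene order came from RefSeq on TAIR10.1. Alternatives were quantile normalization, median centring, adding 32, no filter, a 60th percentile filter, fits to 2 groups, the methods' unpaired test, a trend in limma, a replicate block, ratios of arithmetic means and leaving out each array. Python 3.11.15, pandas 2.3.3 and matplotlib 3.10.9 were used. Raw images, detection calls and sequences were not used here.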

Additional observations from a re-analysis of the deposited data

Results flagged for a closer look

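For 7 genes, the difference between sahy1 and Col-0 and the difference between SAHY1OE and Col-7 were unequal by a test of the difference itself, the interaction in limma, which 6.33% of all probe sets passed at an adjusted p under 0.05. SWEET11 was not tested in this way, because the comparison of sahy1 with Col-0 chose it. The 7 came from the list genes tested, namely 6 sugar transporters, 3 genes of sugar metabolism and response, 2 root hair genes and 2 green tissue genes. SWEET3 passed the filter through the Col-0 arrays alone. The comparisons use different wild types, so a difference between Col-7 and Col-0 enters the interaction. For SWEET3 the log2 difference was -2.27 in sahy1 against Col-0 and -0.22 in SAHY1OE against Col-7, apart by -2.05 (limma adjusted p = 0.0190). For SWEET2 the values were -0.89 and 0.14, apart by -1.02 (limma adjusted p = 0.0203). For SWEET16 they were -1.08 and 0.06, apart by -1.13 (limma adjusted p = 0.0350). For TMT1 they were -0.64 and -0.01, apart by -0.63 (limma adjusted p = 0.0477). In each of these 4 genes all 3 sahy1 arrays lay below all 3 Col-0 arrays, as for 16.5% of the probe sets, and the SAHY1OE arrays overlapped those of Col-7. The root hair genes EXPA7 (-1.05 and 0.00, apart by -1.06, limma adjusted p = 0.0137) and EXPA18 (-1.19 and -0.08, apart by -1.11, limma adjusted p = 0.00612) gave the same kind of result. LHCB4.1, of green tissue, differed the other way (0.59 and -0.13, apart by 0.72, limma adjusted p = 0.0437). Col-7 minus Col-0 was -0.69 for SWEET3, -0.06 for SWEET2, -0.21 for SWEET16 and -0.37 for TMT1. It was 0.10 for EXPA7, -0.08 for EXPA18 and 0.49 for LHCB4.1. Set against Col-7, sahy1 differed by -0.27 for TMT1 (limma adjusted p = 0.172) and by 0.10 for LHCB4.1 (limma adjusted p = 0.670). The others passed an adjusted p under 0.05 there. With no filter on low signals, the interaction of SWEET2, SWEET3, SWEET16, TMT1, EXPA7 and LHCB4.1 no longer passed (limma adjusted p of 0.0997, 0.128, 0.157, 0.117, 0.0815 and 0.131), and that of EXPA18 still did. With each of the 12 arrays left out in turn, the interaction was lost in 11 fits for TMT1 (-0.72 to -0.51), 10 for LHCB4.1 (0.62 to 0.81), 8 for SWEET16 (-1.36 to -0.97), 3 for SWEET2 (-1.19 to -0.89) and 1 for SWEET3 (-2.50 to -1.75), and in 0 for EXPA7 and EXPA18. That of LHCB4.1 was also lost with median centring (limma adjusted p = 0.0628) and with a replicate block (0.0587).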

How the results depend on the processing

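The 4 differences of SWEET11 kept their direction under every alternative run. The filters, fits to 2 groups, the replicate block, the methods' unpaired test and the trend leave a difference of group means unchanged by construction. Only quantile normalization, median centring, adding 32, ratios of arithmetic means and leaving out arrays could move it. After adding 32 before log2, the difference from Col-0 in sahy1 was -3.41 (10.7-fold lower) and that from Col-7 was -2.08 (4.22-fold lower); under the others they lay between -3.86 and -3.82 and between -2.47 and -2.42. Leaving out each array in turn gave -3.95 to -3.69 for sahy1 against Col-0, -2.50 to -2.30 against Col-7, -1.52 to -1.26 for Col-7 against Col-0 and -0.63 to -0.05 for SAHY1OE against Col-7. The counts of called probe sets moved more: from a main count of 572, sahy1 against Col-0 gave 330 with the 60th percentile filter and 285 with the methods' unpaired test; sahy1 against Col-7 (327) gave 179 and 46; Col-7 against Col-0 (250) gave 147 and 25. SAHY1OE against Col-7 (3) gave 0 with no filter, 1 when fitted to its 2 groups and 1 with the methods' test. The 2 sugar transporter calls fell to 1 with the 60th percentile filter, where SWEET3 was not tested, and to 0 with the methods' test, and were 1 to 2 when an array was left out. Values near 0 changed sign when an array was left out: Col-7 minus Col-0 for SWEET2 (-0.21 to 0.017), SAHY1OE minus Col-7 for SWEET3 (-0.52 to 0.23), SWEET16 (-0.061 to 0.20) and TMT1 (-0.13 to 0.076), and sahy1 against Col-0 for SWEET17 (-0.27 to 0.018) and against Col-7 for TMT2 (-0.033 to 0.20). The cause was not tested.

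Of 18 same-numbered pairs of arrays, 5 deviated together with r above 0.1 (range -0.10 to 0.24, and -0.26 to 0.25 for other pairs). For replicates 1, 2 and 3, r was 0.23, 0.058 and 0.22 between Col-7 and SAHY1OE. Between Col-0 and Col-7 it was 0.19, 0.041 and 0.24. Between Col-0 and sahy1 it was 0.23, -0.021 and 0.029, and between Col-0 and SAHY1OE -0.0095, 0.0095 and 0.097. For sahy1 it was 0.086, -0.10 and -0.087 with Col-7, and 0.055, 0.072 and -0.087 with SAHY1OE. Whether the numbers pair the samples was not settled, and the main fits did not use them. With a replicate block the calls were 575 for sahy1 against Col-0 and 330 for sahy1 against Col-7. They were 257 for Col-7 against Col-0 and 3 for SAHY1OE against Col-7. The SWEET11 differences, at -3.82, -2.42, -1.39 and -0.31, cannot change with a block, because every group holds each replicate number.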
